A study of Mus musculus with 18 samples.

Results

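The comparison described here is Fmr1 knockout (KO) against wild type (WT) in cleared lysate of mouse brain slices. Its members are all 6 cleared lysate libraries of the 18 libraries in the series, 3 KO and 3 WT, chosen by their labels and not by any measured value. The series sequenced RNA of cleared lysates and of 2 pools of polysome fractions (medium and heavy), to ask which mRNAs keep ribosomes when new initiation is blocked and how this depends on FMRP. In each genotype, 2 lysates came from slices given 20 µM homoharringtonine (HHT) for 30 min and 1 from slices given DMSO vehicle. HHT stops ribosomes as they begin translating an mRNA, while ribosomes that are already elongating finish and leave.

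All slices were cut from hippocampus, or hippocampus with cortex, of male C57BL/6N WT or Fmr1 KO littermates at postnatal day 28 to 35, after perfusion with cold sucrose buffer under ketamine and xylazine. The labels describe the KO only as a line obtained from another laboratory and backcrossed to C57BL/6, and not which part of Fmr1 it removes. A replicate pooled 10 slices from 2 to 3 mice, so a library is the mean of several animals. The sources used here do not state whether replicates came from separate animals, so p-values measure the spread between these libraries, which may be partly technical. The tissue was homogenised without detergent and centrifuged before NP-40 was added, so these libraries hold the RNA of the cleared lysate and not of the whole tissue. In such bulk lysates, fewer cells of a type and less RNA per cell cannot be told apart.

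Fmr1 encodes FMRP, an RNA-binding protein of neurons and other cells whose loss causes fragile X syndrome. FMRP binds many long brain mRNAs, among them mRNAs of synaptic proteins and chromatin regulators, travels with polysomes and slows or stalls ribosomes on its targets. Its paralogs FXR1P and FXR2P have a similar domain structure, and CYFIP1 and CYFIP2 link it to the cap-binding protein eIF4E and to the WAVE complex that controls actin. A change in translation need not change the amount of an mRNA, and the cleared lysate measures only that amount.

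Library totals ran from 6298975 estimated counts in WT HHT replicate 2 to 13834652 in KO HHT replicate 2, and levels below are CPM, counts scaled to a common library total with TMM factors, so each is a share of its library's own RNA. Levels of a genotype are listed in the order HHT replicate 1, HHT replicate 2, vehicle. All 20 neuron-wide marker genes listed were measured, with a summed level of 20300 to 27600 CPM in KO and 18400 to 26700 in WT, as were all 24 hippocampal and all 24 cortical layer markers. Marker genes of thalamus and striatum, which slices could include, summed to 895 to 976 CPM in KO and 901 to 1090 in WT. All 4 Y-linked genes listed were measured in the 6 libraries. Over genes, log2 levels of KO and WT were closest in the HHT replicate 1 libraries (r = 0.9942) and the vehicle libraries (r = 0.9923), against 0.981 in the HHT replicate 2 libraries.

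Fmr1 was the gene with the smallest p of all 13972 genes tested. It lies on chromosome X at 68678541 to 68717963 (mm10). The KO lysates held 9.39, 5.51 and 8.59 CPM of Fmr1, and the WT lysates 24.7, 35.1 and 26.6. Each KO library was below each WT library, and KO levels averaged 7.83 ± 2.05 CPM (SD, n = 3) against 28.8 ± 5.56 (SD, n = 3). The fitted KO level was 27.3% of WT, a log2 fold change of -1.87 ± 0.24 (SE), with a 95% interval of -2.41 to -1.34. KO lysates therefore still held Fmr1 reads, 73 to 113 estimated counts per library. The edgeR quasi-likelihood test, adjusted by Benjamini-Hochberg over all genes, gave 0.305 for Fmr1, and DESeq2 gave an adjusted p of 1.7e-09. With edgeR it passed 0.05 when KO HHT replicate 1 was left out (-2.06, adjusted p = 0.0433) or WT HHT replicate 1 was left out (-1.99, adjusted p = 0.0261).

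The Fmr1 difference was -2.0 in the HHT lysates and -1.61 in the vehicle lysates, where it rests on 1 library per genotype. The genotype by treatment interaction for Fmr1 was -0.37 ± 0.52 (edgeR, adjusted p = 1). Polysome fractions of the same lysates held the same order: Fmr1 was at 6.48 to 7.45 CPM in KO medium against 18.6 to 30.4 in WT, and at 4.06 to 5.8 in KO heavy against 12.2 to 22.6 in WT. These fractions share their lysates with the inputs and are not separate replicates.

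The paralogs Fxr1 and Fxr2 and the partners Cyfip1 and Cyfip2 had small fitted differences with intervals that held 0. Fxr1, which muscle as well as brain uses, was at 42.1, 37.8 and 50 CPM in KO and 43.1, 50.2 and 42.8 in WT, a log2 difference of -0.07 ± 0.15 with a 95% interval of -0.42 to 0.27. Fxr2 was at 156, 163 and 153 CPM in KO and 151, 149 and 155 in WT (0.05 ± 0.12, interval -0.21 to 0.32). The libraries of both genotypes overlapped for each paralog. On the log2 scale, the intervals leave out a rise of either paralog as large as the Fmr1 deficit. The same is not shown for amounts in CPM, where Fxr2 averaged 152 in WT against 28.8 for Fmr1.

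Cyfip1 differed by -0.03 ± 0.15 and Cyfip2 by 0.08 ± 0.13 on the log2 scale. Cyfip2 was at 1710 to 1880 CPM in KO and 1480 to 1850 in WT. Setd2, which encodes the H3K36 trimethylase named in work on this model, was at 66.4, 46.9 and 62.9 CPM in KO and 55.6, 55.4 and 66.1 in WT (-0.01 ± 0.16, interval -0.36 to 0.35). None of these genes passed the edgeR test, and their libraries overlapped between genotypes.

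**Figure D1:**
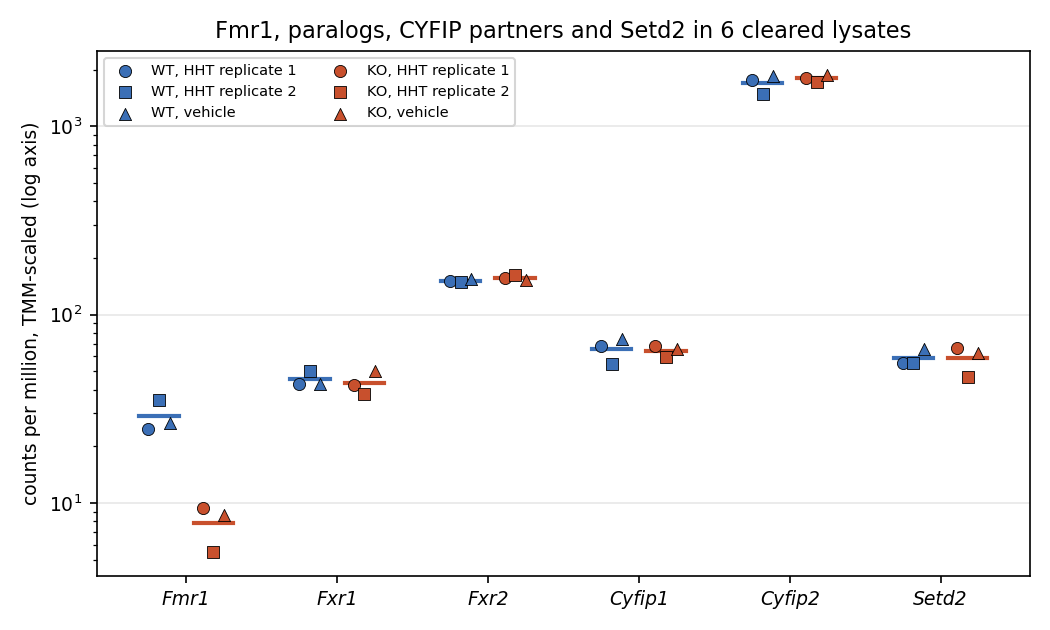
Level of Fmr1, its paralogs Fxr1 and Fxr2, its partners Cyfip1 and Cyfip2, and Setd2 in each cleared lysate, in CPM on a log axis. Symbols are the 3 libraries of each genotype (WT blue, KO orange) and bars their means. The Fmr1 libraries of KO, 5.51 to 9.39, all sit below those of WT, 24.7 to 35.1, while the genotypes overlap for the other 5 genes.

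Among 23 genes of FMRP, its paralogs and binding partners, 23 were measured, 9 lay above 0 and 14 below, and the median log2 difference was -0.06, beside 0.013 over all genes tested. In 3 of the 23 the KO libraries all lay below the WT libraries: Fmr1, Nufip1 and G3bp2. Over all genes, 3.72% had KO libraries entirely below WT and 4.36% entirely above. Nufip1, a nuclear FMRP-interacting protein, was at 19.1, 20.4 and 16.3 CPM in KO and 23.1, 28.3 and 21.5 in WT (-0.38 ± 0.15, edgeR adjusted p = 0.998). G3bp2, a stress granule protein, was at 258, 208 and 245 in KO and 280, 313 and 271 in WT (-0.28 ± 0.14). Caprin1, G3bp1, Stau1 and Ybx1, other RNA-binding proteins of neuronal granules, ranged from -0.02 to 0.05.

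Across the 13972 genes, edgeR called 0 higher and 0 lower in KO at an adjusted p of 0.05 (0% in each direction), with 368 genes at an unadjusted p under 0.05, of which 224 were higher (1.6%) and 144 lower (1.03%). The lowest adjusted p was 0.305. DESeq2 called 3 genes higher (0.0215%) and 2 lower (0.0143%), and limma on log2 values and limma-voom called 0. The genes called by DESeq2 were Hba-a2, Hbb-bs and Gm7120, which rose, and Fmr1 and Rsc1a1, which fell. The median SE was 0.177 on the log2 scale, and for 13430 genes (96.1%) the 95% interval lay within a 2-fold change in either direction. In 609 genes (4.36%) the 3 KO libraries all lay above the 3 WT libraries, and in 520 (3.72%) all below.

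**Figure D2:**
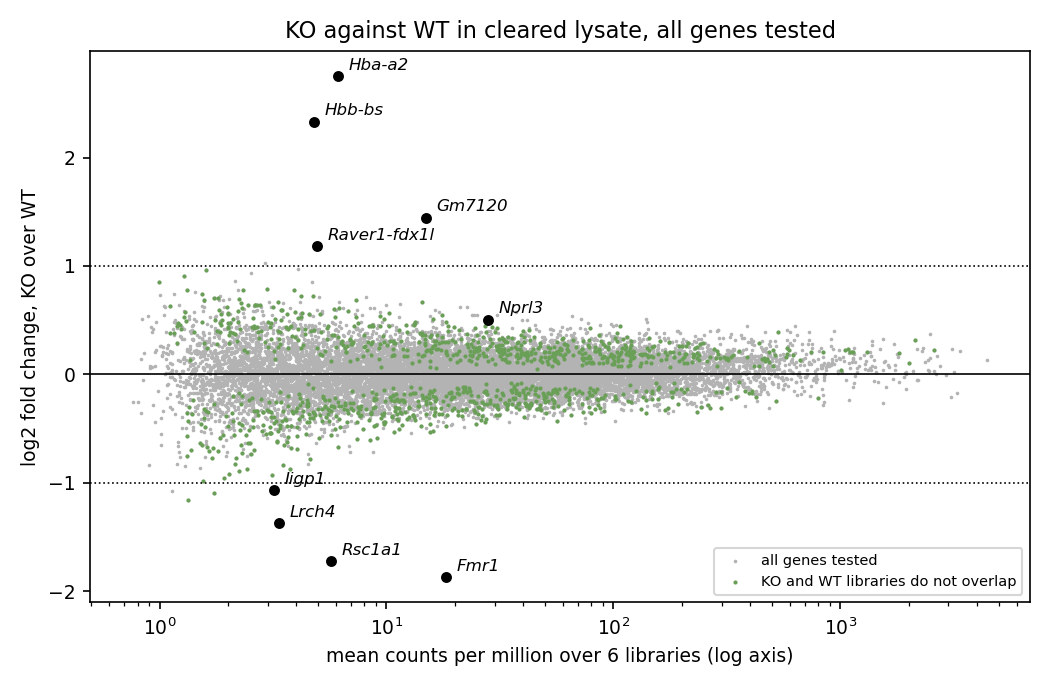
Log2 fold change of KO over WT against mean level (CPM, log axis), 1 point per gene tested. Green points are genes whose KO and WT libraries do not overlap, dotted lines mark a 2-fold change, and black points are named genes. Hba-a2 at 2.75 and Hbb-bs at 2.33 lie highest and Fmr1 at -1.87 lowest.

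The largest differences above 0 were in globin mRNAs, which are made by red blood cell precursors and persist in reticulocytes, and of which neurons and glia hold a little. Hba-a2 (chromosome 11, 32296489 to 32297298, plus strand) was at 6.56, 17.1 and 8.41 CPM in KO and 1.4, 1.27 and 2.03 in WT. Hbb-bs (chromosome 7, 103826534 to 103828096, minus strand) was at 4.9, 13.1 and 6.06 CPM in KO and 1.81, 1.11 and 1.68 in WT. Each KO lysate was above each WT lysate for both genes, and KO HHT replicate 2 was the highest library for both.

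The fitted differences were 2.75 ± 0.43 for Hba-a2 (edgeR adjusted p = 0.449, DESeq2 1.04e-07) and 2.33 ± 0.43 for Hbb-bs (edgeR adjusted p = 0.998, DESeq2 8.93e-05). With edgeR both passed 0.05 only when KO HHT replicate 1 was left out, among the 6 single libraries. Without KO HHT replicate 2 the differences were 2.18 and 1.74. The vehicle pair alone gave 1.95 and 1.74.

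Counts behind these values were small, 79, 226 and 93 in KO and 17, 8 and 17 in WT for Hba-a2. The table has no row for Hba-a1, whose coding sequence differs from that of Hba-a2 in 1 of 426 bases in GENCODE M21, so reads of either gene could stand in the Hba-a2 row. In heavy fractions of the same lysates Hba-a2 was at 1.63 to 2.52 CPM in KO and 0.395 to 0.503 in WT, and Hbb-bs at 0.991 to 2.23 and 0.263 to 0.503. In medium fractions Hba-a2 overlapped between genotypes, at 2.36 to 7.7 CPM in KO and 0.818 to 2.63 in WT, and Hbb-bs did not, at 2.07 to 4.46 and 0.636 to 1.25.

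Of 13 blood genes listed, 5 had a row. Besides the globins, Bpgm and Fech, which erythroid cells and brain both express, differed by -0.08 ± 0.14 and -0.07 ± 0.13. Alas2, the erythroid enzyme of heme synthesis, and Slc4a1, the anion exchanger of the red cell membrane, had no row, and so could not be compared. The part of blood left in vessels in the globin difference was not tested.

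The promoters of both globin genes are shown because these members differed most and in the same direction. The runs are the 120 bases before the transcription start from the RefSeq table (GRCm38.p6), with the motifs CCAAT and CACCC in capitals, elements described in textbook accounts of globin promoters. The Hbb-bs run lies inside the span given above for Hbb-bs, which is from GENCODE M21. That annotation places the start of the gene further upstream than RefSeq does.
Hba-a2, chr11:32296372-32296491, plus strand: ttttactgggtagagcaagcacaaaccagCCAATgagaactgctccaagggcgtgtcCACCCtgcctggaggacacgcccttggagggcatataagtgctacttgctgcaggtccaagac
Hbb-bs, chr7:103827929-103828048, minus strand: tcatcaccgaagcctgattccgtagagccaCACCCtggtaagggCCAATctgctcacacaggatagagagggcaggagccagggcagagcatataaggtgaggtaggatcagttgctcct
Each run holds each motif once, in opposite order. In windows of 120 bases over 32851 promoters of the same table, CCAAT was found on either strand in 21.3%, CACCC in 31.7% and both in 6.2%. The letters say nothing about which factor was bound in these slices.

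Nprl3, a subunit of the GATOR1 complex that restrains mTORC1 and a neighbour of the alpha-globin genes, was at 33.5, 32.3 and 32.7 CPM in KO and 23.9, 22.7 and 22.7 in WT. The fitted difference was 0.5 ± 0.14 (edgeR adjusted p = 0.998), and it ran from 0.49 to 0.54 when single libraries were left out. The naming rule picked Nprl3 for small p and no overlap in these libraries, so its gap and steadiness follow in part from the choice. Nprl3 lies 28.8 kb from Hba-a2. Within 200 kb, Sh3pxd2b differed by 0.10 ± 0.15, Mpg by 0.22 ± 0.17, Rhbdf1 by 0.06 ± 0.23, Snrnp25 by 0.05 ± 0.19 and Ubtd2 by -0.13 ± 0.12. In heavy fractions Nprl3 was at 24.5 to 27.1 CPM in KO and 23.9 to 26 in WT, so the genotypes overlapped there.

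Gm7120, named after its values were seen, had the second smallest p after Fmr1. RefSeq gives its current symbol as Tmem267, a protein-coding gene for a transmembrane protein, on chromosome 13 at 119488039 to 119611059. It was at 22.7, 26.2 and 17.3 CPM in KO and 11.6, 6.19 and 5.98 in WT, a difference of 1.44 ± 0.22 (edgeR adjusted p = 0.449, DESeq2 5.69e-05). The vehicle pair gave 1.50 and the HHT lysates 1.42. With edgeR, Gm7120 passed 0.05 without WT HHT replicate 1 (1.76, adjusted p = 0.0305).

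Genes beside it differed from KO to WT by less, and in both directions. Ccl28, a chemokine of mucosal tissues 12.8 kb away, was at 5.4, 5.59 and 4.79 CPM in KO and 4.11, 2.86 and 2.39 in WT (0.72 ± 0.21, edgeR adjusted p = 0.998). Paip1, Hmgcs1 and Nim1k differed by -0.21 ± 0.14, -0.08 ± 0.12 and -0.16 ± 0.14. Nnt, the mitochondrial transhydrogenase that carries a deletion in the C57BL/6J substrain, lies 79 kb away and was at 26.2, 28 and 20.2 CPM in KO and 22.2, 18.1 and 20.5 in WT.

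The remaining genes above 0 that the naming rule picked were Raver1-fdx1l, Mief2, Slc16a11, Kcns3, B4galt2 and Traf4, with differences from 0.43 to 1.18 and an edgeR adjusted p of 0.998 each. Mief2, a receptor for the mitochondrial fission factor Drp1, was at 16.7, 20.3 and 16.1 CPM in KO and 12.7, 10.2 and 10.4 in WT. Slc16a11, a monocarboxylate transporter family member, was at 5.65, 6.49 and 5.61 in KO and 3.94, 3.97 and 2.87 in WT. Traf4, an adaptor of receptor signalling, was at 18.9, 20.9 and 22.7 in KO and 13.2, 16.4 and 13.3 in WT. B4galt2, a galactosyltransferase of the Golgi, was at 82.9, 94.9 and 92.6 in KO and 69.9, 64.3 and 66.9 in WT. Kcns3, a modulatory potassium channel subunit, was at 10.3, 9.36 and 7.6 in KO and 5.83, 4.92 and 5.98 in WT. These genes were picked for not overlapping, so the gap between genotypes in each follows from the choice.

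Below 0, Rsc1a1 was at 1.16, 4.45 and 2.08 CPM in KO and 7.89, 12.4 and 6.1 in WT (-1.72 ± 0.39, edgeR adjusted p = 0.998, DESeq2 0.0124). Rsc1a1 encodes a regulator of solute carriers and overlaps Ddi2 on the same strand, so reads can be shared between them. Ddi2, a protease of the proteasome stress response, was at 46.3, 41.4 and 51.9 CPM in KO and 43.5, 31.4 and 44.5 in WT (0.22 ± 0.16). The summed level of Rsc1a1 and Ddi2 was 45.9 to 54 CPM in KO and 43.8 to 51.4 in WT, so the genotypes overlapped in the sum.

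Lrch4, a leucine-rich repeat membrane protein, was at 1.74, 2.34 and 1.45 CPM in KO and 5.34, 6.03 and 3.23 in WT (-1.37 ± 0.22, edgeR adjusted p = 0.449, DESeq2 0.314). It shares its strand and position on chromosome 5 (137629121 to 137641099) with the gene model Gm20605, which was at 17.2, 18.3 and 14.2 CPM in KO and 14.4, 11.9 and 12 in WT (0.36 ± 0.16). Their sum was 15.6 to 20.6 CPM in KO and 15.2 to 19.7 in WT. As for Rsc1a1, the named gene was lower in each KO lysate and the sum with its overlapping partner was not. In heavy polysome fractions the Lrch4 order was the reverse, and the difference between fractions passed 0.05 in edgeR for Lrch4 alone of 13973 genes (0.00716%).

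Raver1-fdx1l (RefSeq symbol Gm38431), a readthrough model over Raver1 and Fdx1l, was at 7.31, 4.68 and 8.41 CPM in KO and 2.14, 3.49 and 3.59 in WT (1.18 ± 0.26). Raver1, a splicing co-regulator, differed by 0.14 ± 0.14 and Fdx1l, a mitochondrial ferredoxin, by 0.10 ± 0.15. The sum of all 3 was 85.1 to 102 CPM in KO and 80.4 to 90 in WT. The genotypes overlapped in the sum, and the part of reads shared between models in these 3 overlapping sets was not tested.

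**Figure D3:**
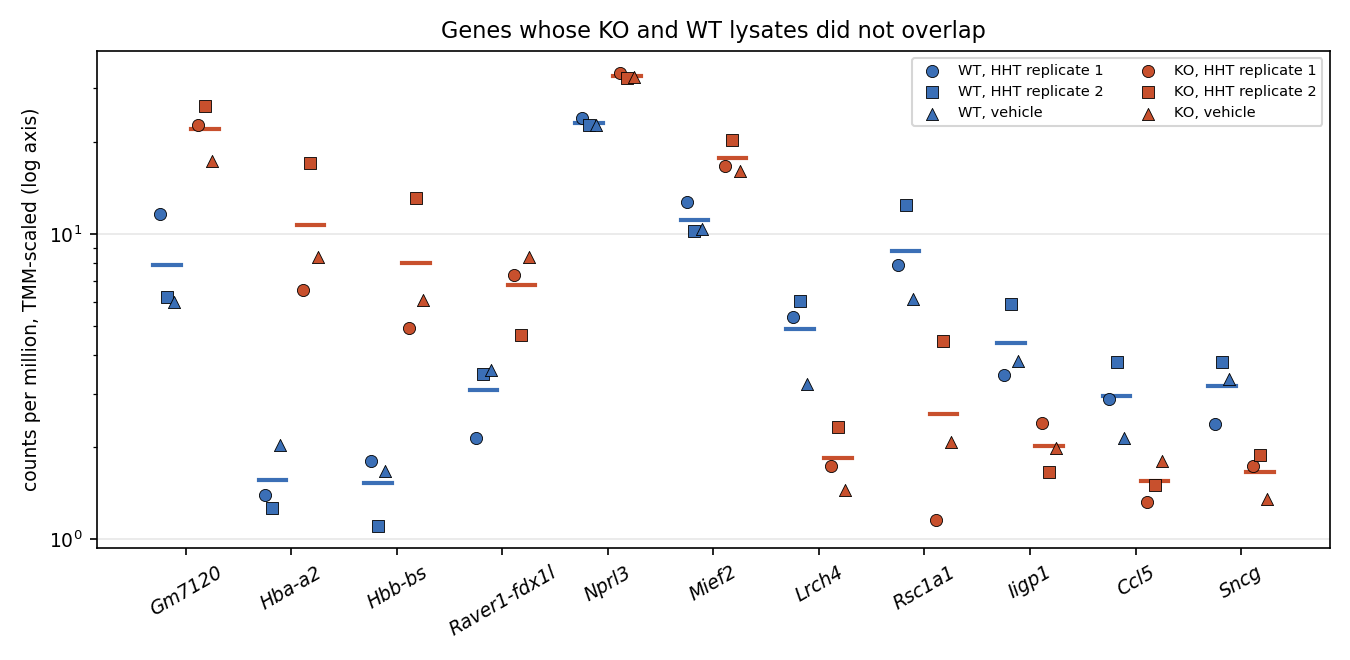
Level in each cleared lysate (CPM, log axis) of 11 genes whose KO and WT libraries do not overlap. Symbols are libraries, WT in blue and KO in orange, and bars are means of 3. Gm7120, Hba-a2, Hbb-bs, Raver1-fdx1l, Nprl3 and Mief2 lie higher in KO, and Lrch4, Rsc1a1, Iigp1, Ccl5 and Sncg lower. The genes were chosen for this separation.

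The other genes below 0 that the rule picked were at low levels, under 7 CPM in each library. Iigp1, an interferon-induced GTPase, was at 2.41, 1.66 and 1.99 CPM in KO and 3.45, 5.88 and 3.83 in WT (-1.07 ± 0.27). Ccl5, a chemokine for T cells and monocytes, was at 1.33, 1.51 and 1.81 in KO and 2.88, 3.81 and 2.15 in WT (-0.9 ± 0.27). Lgals3, a lectin of activated microglia and macrophages, was at 2.91, 2.64 and 1.81 in KO and 3.86, 6.67 and 3.11 in WT (-0.84 ± 0.25). Sncg, the gamma-synuclein gene, was at 1.74, 1.89 and 1.36 in KO and 2.38, 3.81 and 3.35 in WT (-0.88 ± 0.26). Cks1b, AU023762 and Spidr differed by -1.16 ± 0.31, -0.83 ± 0.22 and -0.69 ± 0.20. Each of these had an edgeR adjusted p of 0.998. WT HHT replicate 2, the library with the fewest counts, was the highest of the 6 for Iigp1, Ccl5, Sncg, Lgals3 and Spidr, and the part of depth in this was not tested.

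The 30 measured genes whose start lies within 5 Mb of Fmr1 had a median difference of 0.02, with 16 above 0 and 14 below. At an unadjusted edgeR p under 0.05, 2 of the 30 were lower (1.03% over all genes) and 0 higher (1.6%). In 1 of them the KO libraries all lay above WT (F8a; 4.36% over all genes) and in 3 all below (Cetn2, Zfp185 and Mtm1; 3.72%). The nearest, Aff2, the gene of another X-linked intellectual disability site, starts 0.68 Mb away and was at 19.4, 10.6 and 15.9 CPM in KO and 21.6, 8.89 and 19.9 in WT (-0.16 ± 0.32). Slitrk2 and Slitrk4, synaptic adhesion proteins on the other side, differed by -0.06 ± 0.24 and 0.13 ± 0.31. Cetn2, a centriole and DNA repair protein, was at 12.9, 13.5 and 12.6 in KO and 14.3, 24.5 and 18.1 in WT (-0.53 ± 0.21, edgeR adjusted p = 0.998). No neighbour came near the difference of Fmr1: the range over the 30 was -0.56 to 0.55.

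**Figure D4:**
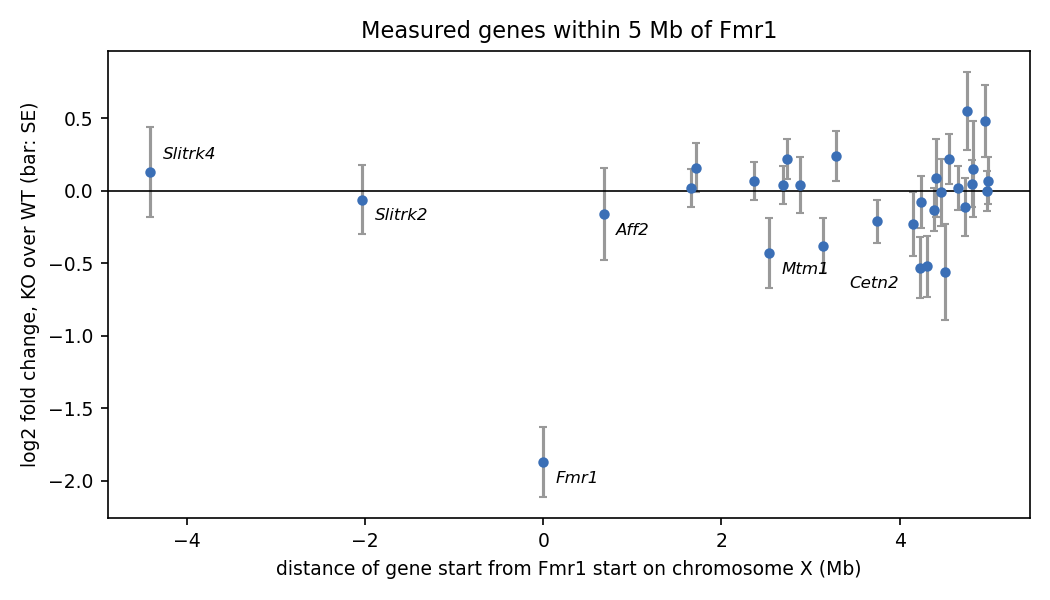
Log2 fold change of KO over WT (points, bars are SE) for Fmr1 and the 30 measured genes that start within 5 Mb of it, against distance from the start of Fmr1 in Mb. Fmr1 lies at -1.87 and the other genes between -0.56 and 0.55.

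No member of any gene list passed the edgeR test over all genes, so the lists are described by counts and medians beside the median of 0.013 over all genes. Of 71 mRNAs that FMRP binds, from a selection of published brain crosslinking targets, all were measured, 51 lay above 0, and the median was 0.08. It turned to -0.05 without 1 library and reached 0.22 without another. In 1 the KO libraries lay entirely above WT (4.36% over all genes), and in 0 entirely below (3.72%). Camk2a, a postsynaptic kinase, was at 3320, 3820 and 3700 CPM in KO and 3180, 2640 and 3540 in WT (0.22 ± 0.14). Nlgn3, a synaptic adhesion protein, was at 156, 125 and 75.1 in KO and 141, 65.9 and 54.1 in WT (0.45 ± 0.25), with more spread within genotypes than between them.

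Effectors of the fragile X model, such as components of mGluR, ERK and mTOR signalling, had a median of 0.03 over 36 genes. Homer1, a scaffold of group I metabotropic glutamate receptors, was at 150, 96.9 and 176 CPM in KO and 159, 151 and 196 in WT (-0.27 ± 0.17). Dagla, the enzyme that makes the endocannabinoid 2-AG, differed by 0.30 ± 0.18 and Eif4e, the cap-binding factor, by -0.27 ± 0.18. Rps6ka1, an S6 kinase downstream of ERK, was at 8.72, 10.4 and 10 CPM in KO and 12.5, 12.5 and 11 in WT (-0.30 ± 0.17), without overlap. KO libraries lay entirely below WT in 2 of the 36 (3.72% over all genes) and entirely above in 1 (4.36%).

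Glutamate receptors and postsynaptic scaffolds had a median of 0.11 over 38 genes, with 27 above 0, and the median ran from -0.04 to 0.22 when single libraries were left out. Grm2, a presynaptic metabotropic receptor, was at 108, 82.1 and 52.1 CPM in KO and 96.6, 55.7 and 32.7 in WT (0.42 ± 0.21), and the genotypes overlapped. The GABA system had a median of -0.11 over 23 genes, with 8 above 0 and 15 below, and was -0.19 in HHT and 0.24 in vehicle. It ran from -0.23 to 0.15 when single libraries were left out. Gad2, a GABA-making enzyme, was at 182, 155 and 191 CPM in KO and 194, 236 and 205 in WT (-0.27 ± 0.14). Gad1, the other such enzyme, was at 419, 323 and 415 in KO and 438, 422 and 444 in WT (-0.17 ± 0.14). Both had KO libraries entirely below WT, and KO HHT replicate 2 was the lowest library in each. They were the 2 of the 23 that lay entirely below (3.72% over all genes), and 0 lay entirely above (4.36%). Gabbr2, a subunit of the GABA-B receptor, was the list's highest at 0.31 ± 0.25.

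Autism risk genes had a median of 0 over 49 measured genes (25 above 0, 24 below), and histone methylation genes, Setd2 among them, 0.01 over 32 (18 above 0, 14 below). Dot1l, the H3K79 methylase, was at 61.9, 62.1 and 67.5 CPM in KO and 55.8, 46.4 and 60.6 in WT (0.24 ± 0.13). Setd1a, an H3K4 methylase, differed by 0.18 ± 0.12 and Kdm4b, a demethylase of H3K9 and H3K36, by 0.19 ± 0.15. Setmar, a histone methylase, differed by -0.30 ± 0.21. Tsc2, the tuberous sclerosis gene that restrains mTORC1, was at 198, 194 and 198 in KO and 192, 137 and 183 in WT (0.20 ± 0.15).

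Splicing factors had the lowest median of any list plotted, -0.14 over 62 genes, with 48 below 0 and 14 above. KO libraries lay entirely below WT in 6 of the 62 (3.72% over all genes) and entirely above in 1 (4.36%). At an unadjusted edgeR p under 0.05 there were 0, beside 1.03% of all genes lower and 1.6% higher. Ptbp3, a repressor of exon inclusion, was at 23.4, 18.9 and 23.6 CPM in KO and 24, 31.9 and 29.6 in WT (-0.37 ± 0.17). Hnrnph3 was at 15.5, 14 and 16.2 in KO and 16.9, 23.2 and 19.1 in WT (-0.36 ± 0.17), and Elavl2, a neuronal RNA stabiliser, differed by -0.24 ± 0.13. The median was -0.16 in HHT and -0.07 in vehicle, and ran from -0.23 to -0.04 when single libraries were left out.

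Cytosolic ribosomal protein genes had a median of -0.02 over 79, translation factors 0 over 47 and nuclear-encoded respiratory chain genes 0.01 over 72. Eif5b, the factor that joins ribosomal subunits, was at 64.1, 46.7 and 59.1 CPM in KO and 65, 81.2 and 74.4 in WT (-0.38 ± 0.16). Eif4ebp2, the brain form of the eIF4E inhibitor, was at 15.7, 12 and 15.4 in KO and 11.6, 6.99 and 14.8 in WT (0.37 ± 0.23). Heat shock and unfolded protein response genes had a median of 0 over 32, with 16 above 0 and 16 below. Ddit3 and Dnaja1, a stress transcription factor and a chaperone, differed by -0.28 ± 0.14 and -0.31 ± 0.15. P4hb, a protein disulfide isomerase, and Herpud1, a factor of ER-associated degradation, differed by 0.25 ± 0.14 and 0.24 ± 0.13.

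Immediate early genes, which neurons switch on with activity, had a median of 0.06 over 32 genes, with 20 above 0. KO libraries lay entirely above WT in 5 of the 32 (4.36% over all genes) and entirely below in 1 (3.72%). Dusp5, a phosphatase of ERK, was at 19.2, 23.9 and 20.9 CPM in KO and 17, 14.8 and 16.4 in WT (0.40 ± 0.16). Nr4a1, an orphan nuclear receptor, was at 177, 208 and 200 in KO and 162, 149 and 164 in WT (0.30 ± 0.13), and Egr4, a zinc finger transcription factor, at 156, 191 and 186 against 150, 125 and 154 (0.31 ± 0.14). Differences of these 3 in the vehicle pair were 0.35, 0.29 and 0.27, beside HHT values of 0.43, 0.31 and 0.33. The 3 were named by smallest p over these same libraries, so a like direction in both treatments follows in part from the choice. In medium and in heavy fractions the genotypes overlapped for all 3.

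Among cell type markers, the 20 microglial genes had the highest median, 0.22, with 17 above 0. At an unadjusted edgeR p under 0.05, 3 of the 20 were higher (1.6% over all genes), and 0 were without overlap (4.36% above and 3.72% below over all genes). The median was 0.10 in HHT and 0.39 in vehicle. Csf1r, the receptor that keeps microglia alive, was at 48.8, 52.2 and 38.2 CPM in KO and 47.8, 29.1 and 22.4 in WT (0.50 ± 0.20). Tmem119, a microglial surface protein, was at 4.57, 4.53 and 3.44 in KO and 2.22, 4.45 and 1.79 in WT (0.65 ± 0.27). The summed microglial level ran from 211 to 400 CPM in KO and 154 to 337 in WT.

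Inflammatory cytokines and chemokines, made mostly by glia, had a median of -0.05 over 28, -0.19 in HHT and 0.23 in vehicle. Cxcl10, an interferon-induced chemokine, was at 21.7, 18.1 and 11.8 CPM in KO and 27.2, 43 and 9.69 in WT (-0.49 ± 0.26). Both KO HHT lysates were below both WT HHT lysates, and the KO vehicle lysate was above the WT vehicle lysate. Cx3cl1, the neuronal ligand of the microglial receptor CX3CR1, was at 1360, 1180 and 601 in KO and 1290, 851 and 365 in WT (0.40 ± 0.18).

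Astrocyte markers had a median of 0.10 over 20 genes and oligodendrocyte markers -0.08 over 20, with 6 above 0 and 14 below. At an unadjusted edgeR p under 0.05, 3 oligodendrocyte markers were lower (1.03% over all genes) and 0 higher (1.6%). KO libraries lay entirely below WT in 2 of them (3.72% over all genes) and entirely above in 0 (4.36%). The oligodendrocyte median was -0.19 in HHT and 0.07 in vehicle, and its highest member was Mag, a myelin adhesion protein, at 0.23. Ermn, a myelin cytoskeleton protein, was at 36.7, 28 and 39.9 CPM in KO and 40.6, 47.6 and 49.2 in WT (-0.40 ± 0.15), and Aspa, which breaks down N-acetylaspartate, at 9.47, 7.78 and 9.13 against 10.3, 16.4 and 12 (-0.53 ± 0.21). Inhibitory neuron, hippocampal and cortical markers had medians of -0.07, -0.01 and -0.01. Neuron-wide markers had a median of 0.07 over 20 genes, with 12 above 0 and 8 below, the lowest Map2 at -0.18. At an unadjusted edgeR p under 0.05, 2 of them were higher (1.6% over all genes) and 0 lower (1.03%). Their highest member was Slc17a7, the vesicular glutamate transporter of forebrain excitatory neurons. It was at 2900, 3550 and 1950 in KO and 2740, 2210 and 1520 in WT (0.38 ± 0.14, edgeR adjusted p = 0.998).

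Markers of thalamus and striatum had a median of -0.09 over 23 measured genes, with 19 below 0 and 4 above. The median was -0.17 in HHT and 0.02 in vehicle, and the highest member was Tcf7l2 at 0.22. Adora2a, the adenosine receptor of striatal neurons, was at 7.64, 6.42 and 5.24 CPM in KO and 17.7, 10.5 and 4.79 in WT (-0.72 ± 0.29), lower in KO in HHT and not in vehicle. Drd2, a dopamine receptor, differed by -0.45 ± 0.22 and Rgs9, a striatal regulator of G-protein signalling, by -0.29 ± 0.15. The part of the cut of the slices in these values was not tested.

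**Figure D5:**
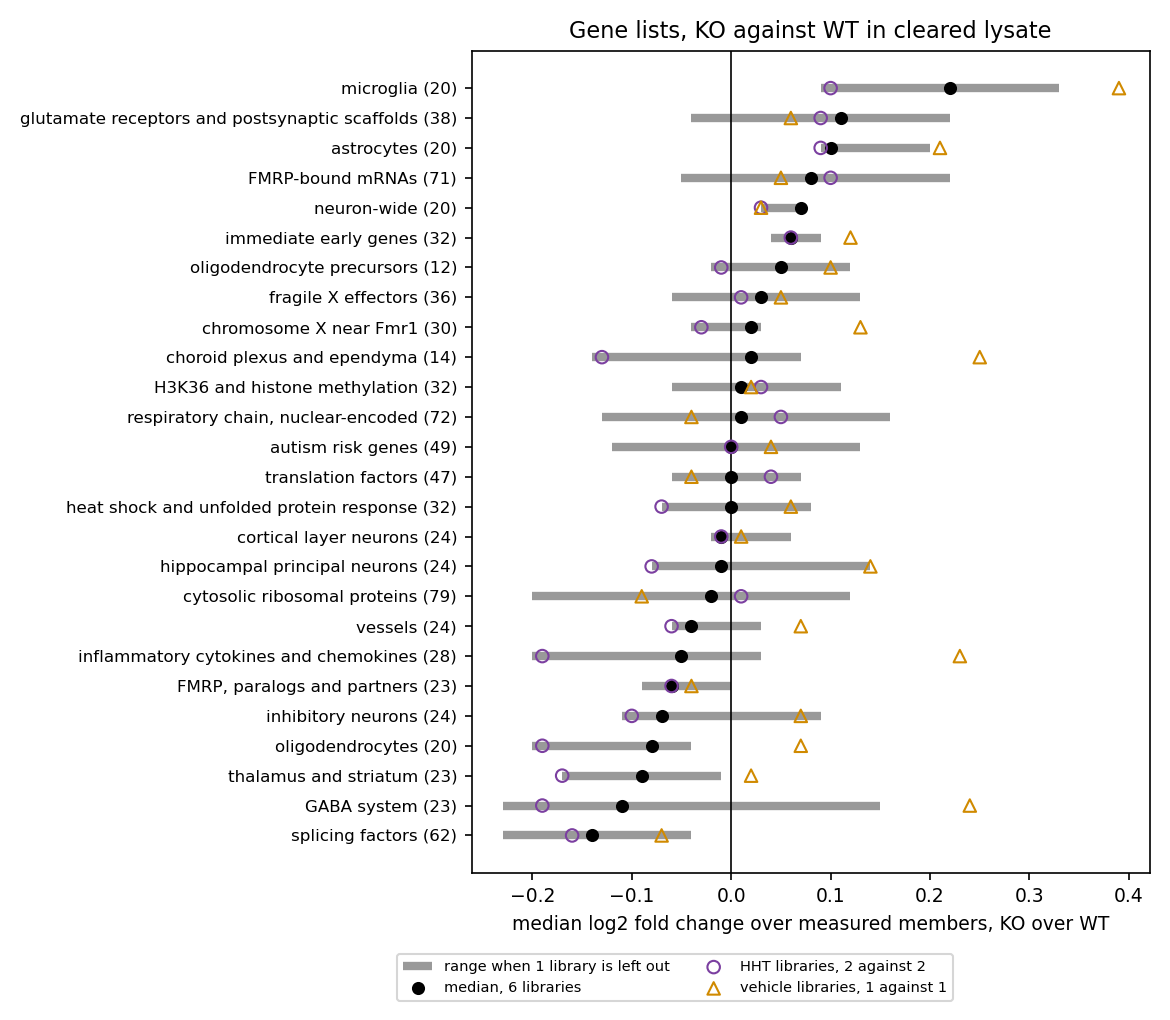
Median log2 fold change of KO over WT over the measured members of 26 gene lists, with the number of members in brackets. Black points use all 6 libraries, grey bars give the range when 1 library is left out, purple circles the HHT libraries (2 against 2) and gold triangles the vehicle libraries (1 against 1). Medians run from -0.14 for splicing factors to 0.22 for microglia, and for many lists the bar crosses 0.

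The genotype by treatment interaction asks whether the KO to WT difference depends on HHT. EdgeR called 0 of 13973 genes (0%), with 93 at an unadjusted p under 0.05, and DESeq2 called 0, with 20. Within HHT alone, 2 KO against 2 WT lysates, edgeR called 0 higher and 0 lower with 207 at an unadjusted p under 0.05, and DESeq2 called 1 higher, Hba-a2, and 1 lower, Fmr1. Without KO HHT replicate 1, edgeR called Pcdha6, a clustered protocadherin whose exons overlap those of its cluster, in the interaction. Pcdha6 was at 15, 6.04 and 8.14 CPM in KO and 14, 11.9 and 2.39 in WT. With 1 vehicle library per genotype, the vehicle side borrows its spread from the HHT lysates.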

How the data were processed

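RNA of 6 cleared lysates was compared, 3 Fmr1 KO and 3 WT. Per the submitters' processing notes, the tools were Bowtie2 2.1.0, RSEM 1.2.11, Trimmomatic 0.32 and DESeq2 1.16.1 with mm10, whose roles are not stated. The authors deposited estimated counts for 13973 genes. Of 251514 values, 0 were whole within 1e-06 and 0 were at 0, so low genes had been left out or values changed. The lowest count per lysate library ran from 2.13 to 5.43. Whether the counts were changed after estimation is not stated, so they cannot be taken as raw counts. The other deposited table, called TPM, is treated as a score, since 10 of its 18 columns exceed the sum TPM can have. The sources used here do not state whether batches were adjusted, which could make the spread too small.

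Rounded counts were tested with edgeR 4.0.16 (R 4.3.3; TMM, low-count filter, quasi-likelihood F-test, treatment as covariate, 3 residual and 6.15 prior degrees of freedom), 2-sided and adjusted over all genes at 0.05. The script was tested on simulated data. Alternatives were DESeq2 1.42.0, limma 3.58.1 on log2(score + 1) or + 0.1, limma-voom, other scalings and filters, libraries left out and a replicate block. Positions are from GENCODE M21, where 13413 symbols matched directly, 525 through RefSeq and 35 not.

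Named genes are Fmr1, Fxr1, Fxr2, Cyfip1, Cyfip2, Setd2, measured blood genes (some named genes are not reported here) and, per direction, up to 10 genes of at least 1 CPM past 0.05, filled by smallest p among genes without overlap, predicted models left out, plus up to 4 members per list by smallest p. Gm7120, overlapping or neighbouring genes and some further list members were chosen after their values were seen. The comparison, lists and rule were chosen with earlier results of these data known.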

Additional observations from a re-analysis of the deposited data

Results flagged for a closer look

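For Lrch4 the KO to WT difference in heavy polysome fractions differed from that in cleared lysate by 3.1 ± 0.35 on the log2 scale (edgeR over all 18 libraries as 12 groups, adjusted p = 0.00803). It was the 1 gene of 13973 (0.00716%) past 0.05 in that test. In heavy fractions Lrch4 was at 4.38, 4.15 and 4.72 CPM in KO and 1.71, 1.15 and 1.17 in WT, so KO lay above WT, the reverse of the cleared lysates. In medium fractions it was at 5.38, 5.75 and 6.35 in KO and 5.68, 3.82 and 6.65 in WT. Gm20605, which overlaps it on the same strand, was at 12.1 to 18.2 CPM in KO heavy and 15.3 to 19.8 in WT heavy. The sum of both was 16.8 to 22.3 in KO and 16.4 to 21 in WT, so the genotypes overlapped. The fit treats fractions of a lysate as separate libraries, and the part of the read split between both models in this difference was not tested.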

How the results depend on the processing

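The count of genes called by edgeR in KO against WT was 0 higher and 0 lower under other scalings (RLE, total counts), no filter or at least 5 CPM, no treatment term, the 4 HHT libraries alone, both log2 score fits, limma-voom, and the bias-adjusted or robust quasi-likelihood. It was 3 higher and 2 lower with DESeq2, 1 and 1 with all 18 libraries, 0 to 2 and 0 to 1 with single libraries left out, 4 and 2 without both HHT replicate 2 libraries, and 61 and 29 without both HHT replicate 1 libraries, where 1 residual degree of freedom is left. The last sets were chosen after seeing the data. List members called were 0, and 3 with DESeq2, 2 with all 18 libraries, 0 to 3 with single libraries left out, 3 without both HHT replicate 2 and 13 without both HHT replicate 1 libraries. For Fmr1 the difference was -1.88 with DESeq2 and -1.88 with all 18 libraries (adjusted p = 0.0131), -2.06 to -1.62 with single libraries left out, and -1.52 and -2.15 without both HHT replicate 2 or 1 libraries. Within HHT, DESeq2 called 1 higher and 1 lower, and leaving out single libraries gave 0 to 3 higher and 0 to 2 lower. For the interaction it gave 0 higher and 0 to 1 lower. The cause was not tested.

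The labels do not say that equal numbers share a preparation. HHT replicates deviated alike in both genotypes (r = 0.32), a hint from the data and not the design. Of 6 libraries, 4 were closest to the other genotype of their own treatment and number. These include the vehicle libraries, where 1 library per genotype leaves no other number to match. The HHT replicate 1 libraries were closest to each other (r = 0.9942). KO and WT HHT replicate 2 were both closest to WT HHT replicate 1 (r = 0.9835 and 0.9821). With a replicate block over the 3 pairs, edgeR called 0 higher and 0 lower (1000 at an unadjusted p under 0.05), Fmr1 stood at -1.87 (adjusted p = 0.0789), and within HHT 3 higher and 3 lower were called.

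Values near 0 changed sign. Fxr1 was -0.23 to 0.03 with single libraries left out (0.03 without KO or WT HHT replicate 2) and 0.07 without both. Fxr2 was -0.01 without both. Cyfip1 was -0.14 to 0.05 with single libraries left out and 0.04 with HHT libraries alone. Setd2 was -0.17 to 0.14 with single libraries left out, 0.02 with HHT libraries alone and 0.08 without both HHT replicate 2 libraries. Bpgm was -0.15 to 0.01 and Fech -0.12 to 0.01 with single libraries left out. Over 28 lists and all these settings, 587 list medians stayed within 1 residual SD of the value on 6 libraries and 29 did not. This SD could exceed the median itself, as for FMRP-bound mRNAs (median 0.08, SD 0.242) and the GABA system (-0.11, SD 0.313). A median could thus change sign and still count as within it, so the count does not show that directions were stable. Below about 5 CPM, WT HHT replicate 2 holds few counts, which limits low genes most.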

Other observations

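Of the 10 genes above 0 picked by the naming rule, 5 lie on chromosome 11, which holds 8.22% of the genes: Hba-a2, Nprl3, Mief2, Slc16a11 and Traf4. Over all genes whose KO libraries lay entirely above WT, chromosome 11 held 68 of 609 (11.2%) and chromosome 7 held 65 (10.7%, against 7.54% of all genes). Chromosome 17 held 43 (7.06%, against 4.72% of all genes), so a share above that of all genes was not particular to chromosomes 11 and 7. Of genes entirely below WT, chromosome 11 held 35 of 520 (6.73%) and chromosome 13 held 32 (6.15%, against 3.54% of all genes). Genes of 1 library set are not independent, and no test was made.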
